A study of Canis lupus familiaris with 6 samples.

Results

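The genes described here are those of the MHC class II pathway on a canine array: the class II chains DLA-DRA, HLA-DRB1, DLA-DQA1, DLA-DQB1, DLA-DMA, DLA-DMB and DLA-DOA, the invariant chain CD74, the protease CTSS and the transactivator CIITA. They were chosen by gene symbol because earlier results of the same arrays had shown most of them higher in mix culture, so the difference between the cultures is given as a description and carries no test of its own. The 10 genes had 23 probes among 43603 probes that were not controls. HLA-DRB1 is the symbol the array design gives to the canine DR beta gene.

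Class II molecules are pairs of an alpha and a beta chain that show peptides from the endosome to CD4+ T cells. The invariant chain holds new pairs until cathepsins cut it away, and DM then exchanges its remnant for peptide, with DO as the modulator of DM. Transcription of these genes depends on CIITA, which binds no DNA itself and acts on factors bound at their promoters. Professional antigen-presenting cells express the pathway constitutively, and epithelial cells mostly on exposure to interferon-gamma.

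The cells came from MDCK, a canine kidney epithelial line. β-cat ΔN/RasV12 cells carried mCherry-β-catenin Δ131, a stabilised mutant made constitutively, and GFP-RasV12 made on addition of tetracycline. In single culture they grew alone. In mix culture they grew with MDCK mCherry-β-catenin Δ131 cells, here called β-cat ΔN cells, which outnumbered them 10 to 1. Tetracycline was present in both cultures for 24 h. Cells with GFP were then collected by flow cytometry, and total RNA of 3 single culture and 3 mix culture samples was hybridised to 1-colour Agilent arrays. The labels do not say whether replicates were separate cultures, so the tests measure the spread between these samples, which may be technical.

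Replicate 1 of both cultures lay on slide 1 and replicates 2 and 3 on slide 2. The scanner software called 61.11% to 65.66% of an array's spots well above background. Mix culture replicates 2 and 3 stood in each other's place in the authors' value table: each column matched the scanner file of the other, with correlations of 0.999 and 0.993, and its own with 0.457 and 0.459. Both belong to mix culture, so group means do not depend on it. All 12 epithelial markers found on the array were tested, CDH1, EPCAM and the kidney cadherin CDH16 among them. Their summed intensity was 129000 to 160000 in single culture and 121000 to 136000 in mix culture. None was called without a block. With the replicate block CLDN4, a claudin, was called lower (-0.87, adjusted p = 0.022). With the slide block CDH1 was called lower as well (-0.47, adjusted p = 0.0442). The result of 1 marker is not reported here. The part of these changes in the results was not tested. The HRAS probe read 12900 to 18900 in single culture and 9260 to 11800 in mix culture, and the cultures overlapped once the arrays were scaled.

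Each probe is a 60-base oligonucleotide, and its sequence decides which RNA it reads. Of the 5 probes of the DR chains 4 are shown for that reason, with a CIITA probe and a CD74 probe. HLA-DRB1 probe 1 is given by position alone, since it may lie in an untranslated region. Positions are those of the array design on CanFam3.1. Within a gene, probes are numbered from the brightest.
DLA-DRA probe 1, chr12:2136615-2136674, plus strand: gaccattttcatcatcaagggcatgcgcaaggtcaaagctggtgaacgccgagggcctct
DLA-DRA probe 2, chr12:2136082-2136141, plus strand: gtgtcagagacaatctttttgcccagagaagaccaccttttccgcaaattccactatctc
HLA-DRB1 probe 2, chr12:2152253-2152777, minus strand: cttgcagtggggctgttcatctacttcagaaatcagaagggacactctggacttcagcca
HLA-DRB1 probe 3, chr12:2157321-2164447, minus strand: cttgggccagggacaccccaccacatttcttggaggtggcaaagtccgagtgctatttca
CD74 probe 1, chr4:58695751-58696831, plus strand: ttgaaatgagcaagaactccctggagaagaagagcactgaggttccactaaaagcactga
CIITA probe 2, chr6:31776676-31776900, minus strand: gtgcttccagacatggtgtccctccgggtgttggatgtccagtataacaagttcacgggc
The positions of the HLA-DRB1, CD74 and CIITA probes span 525, 7127, 1081 and 225 bases of the genome, more than the length of the probe, so each is placed across a gap such as an intron.

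A second set shows why the DLA-DQB1 values need care. The capitals mark a run of 53 bases that the brightest pair of DLA-DQB1 probes share.
DLA-DQB1 probe 1, chr12:2157229-2157288, minus strand: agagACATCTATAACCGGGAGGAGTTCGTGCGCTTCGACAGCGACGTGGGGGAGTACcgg
DLA-DQB1 probe 2, chr12:2307852-2307911, minus strand: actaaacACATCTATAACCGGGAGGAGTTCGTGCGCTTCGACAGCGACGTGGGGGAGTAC
The design places probe 1 only 32 bases from HLA-DRB1 probe 3, and 149 kb from the nearest other DLA-DQB1 probe.

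Of the 23 probes, 18 were tested, meaning that 1 culture or both had them well above background throughout. With limma and Benjamini-Hochberg adjustment over all 26621 tested probes, 9 of the 18 were called higher in mix culture at an adjusted p under 0.05, and none lower. They belonged to 6 genes: DLA-DRA, HLA-DRB1, DLA-DQB1, DLA-DMB, CTSS and CIITA. Over all tested probes 0.804% were called higher. The genes were chosen on this contrast, so nothing is read from that difference, and 6 of the 18 probes passed the background filter through mix culture alone. Of the 9 probes above background on all 6 arrays, 4 were called. With the slide or the replicate number as a block, 15 of 18 were called, all of them higher. Only the tested DLA-DQA1 and DLA-DOA probes were not called with these blocks. With the slide block 7.22% of all tested probes were called and 3.99% were called higher. With the replicate block 1410 of 26621 were called, 865 of them higher. The cultures did not overlap at 15 of the 18 probes, with mix culture higher at each, while 16.5% of all tested probes did not overlap and 7.83% did so with mix culture higher. The call count depended on which array was left out. It was 8, 6 and 4 without single culture replicates 1, 2 and 3. Without mix culture replicates 1, 2 and 3 it was 14, 3 and 4. Over all tested probes the calls in the same order were 224, 162, 91, 247, 92 and 92, against 232 with all arrays. On the tested probes the median log2 change was 2.24, against -0.05 for all tested probes.

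**Figure D1:**
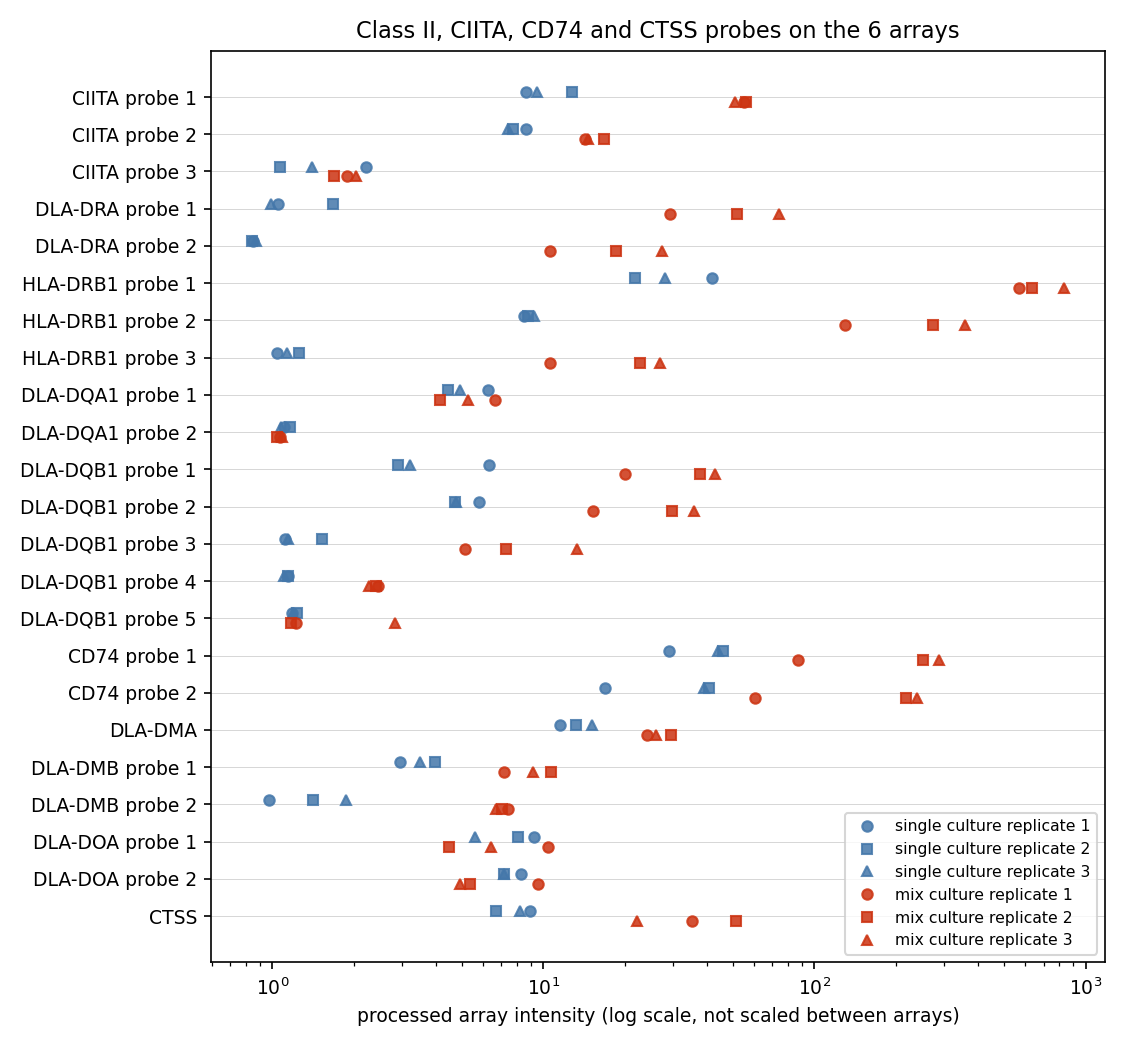
Processed intensity of each probe (horizontal log axis) on the 6 arrays, single culture in blue and mix culture in red, with a marker shape for each replicate. The mix culture points of DLA-DRA, HLA-DRB1, CD74, CTSS and CIITA probes 1 and 2 lie to the right of all single culture points, while those of DLA-DQA1 and DLA-DOA overlap them.

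CIITA, the regulator of the pathway, was called higher without a block at 1 of its 3 probes. Probe 1 read 8.66, 12.8 and 9.48 in single culture replicates 1 to 3 and 55.2, 56.1 and 50.8 in mix culture. The mix culture values lay close together and far above the single culture values, a log2 change of 2.34 (SE 0.25, n = 3 and 3) or 5.08-fold. Probe 2 read 8.66, 7.74 and 7.39 in single culture and 14.3, 16.8 and 14.6 in mix culture. The cultures did not overlap there either, but the change of 0.87 (SE 0.20) was smaller and was not called. Probe 3, at chr6:31787031-31787090, was not well above background on any array and gives no fold. The 2 measured probes thus gave different sizes for 1 gene. Probe 1 lost its call without single culture replicate 3, mix culture replicate 2 or mix culture replicate 3. These arrays read RNA of a sorted population, so more cells expressing a gene and more RNA per cell cannot be told apart.

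DLA-DRA encodes the DR alpha chain, the partner of every DR beta chain. Probe 1 read 1.05, 1.68 and 0.986 in single culture and 29.3, 51.9 and 73.8 in mix culture. It was well above background on no single culture array and on all mix culture arrays. For such a probe only a bound is given, the mix culture mean over the mean of the lowest intensity well above background on each single culture array, or the probe's own where that is higher. DLA-DRA rose at least 10.9-fold at probe 1. Probe 2 read 0.851, 0.842 and 0.870 in single culture and 10.6, 18.5 and 27.5 in mix culture. It had the same pattern, and rose at least 3.95-fold. The fitted log2 changes were 5.26 (SE 0.49) and 4.29 (SE 0.45), which rest on single culture values below background. Probe 1 kept its call whichever array was left out, and probe 2 lost it without single culture replicate 3 or mix culture replicate 2. These calls rest on the same values below background. With normexp background correction and quantile normalization the changes were 0.95 at probe 1 and 0.47 at probe 2, and neither was called.

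HLA-DRB1 encodes the DR beta chain and was read by 3 probes. Probe 1, at chr12:2151410-2151469, read 41.8, 21.8 and 28.2 in single culture and 570.0, 633 and 834 in mix culture, a log2 change of 4.44 (SE 0.30) or 21.7-fold. Probe 2 read 8.48, 8.81 and 9.27 in single culture and 130.0, 273 and 360.0 in mix culture, a change of 4.66 (SE 0.48) or 25.3-fold. Both were above background on all 6 arrays, so these folds are measured on both sides. Probe 3 read 1.04, 1.25 and 1.13 in single culture and 10.6, 22.8 and 27.0 in mix culture. It was above background in mix culture alone and rose at least 4.22-fold. All 3 probes were called. Probe 1 kept its call whichever array was left out. Probe 2 lost it without mix culture replicate 2, and probe 3 without single culture replicate 3, mix culture replicate 2 or mix culture replicate 3.

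The DQ chains gave unlike values. DLA-DQA1, the DQ alpha chain, read 6.27, 4.46 and 4.91 in single culture and 6.61, 4.16 and 5.29 in mix culture at probe 1. The cultures overlapped, with a log2 change of -0.04 (SE 0.18). Probe 1 was well above background on 3 single culture arrays and 2 mix culture arrays. Its values lay near the lowest intensity so called on an array, 4.19 to 4.48, so a change could be missed. The other DLA-DQA1 probe was below background on all arrays. Of the 5 probes of DLA-DQB1, the DQ beta chain, probe 1 read 6.28, 2.91 and 3.22 in single culture and 20, 37.9 and 42.9 in mix culture. It was called, with a change of 2.97 (SE 0.44), and was above background on 1 of 3 single culture arrays. This is the probe placed among the HLA-DRB1 probes. It lost its call without single culture replicate 2 or 3 or mix culture replicate 2 or 3. Probe 2, which shares the run of bases shown above, read 5.81, 4.71 and 4.77 in single culture and 15.3, 29.9 and 35.9 in mix culture, a change of 2.26 (SE 0.42) that was not called. Probe 3, at chr12:2305930-2305989, read 1.11, 1.53 and 1.14 in single culture and 5.12, 7.30 and 13.3 in mix culture. It was above background on 2 of 3 mix culture arrays and on no single culture array, and was not tested. The calculation used for the bounds gave 1.79-fold higher in mix culture. Its mix culture mean includes the array where probe 3 was not above background, so this value is not a firm minimum. Probes 4 and 5 were above background on no array. How much HLA-DRB1 RNA adds to DLA-DQB1 probes 1 and 2 was not tested.

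CD74, the invariant chain, read 29.0, 46.1 and 43.9 in single culture and 87.2, 251 and 288 in mix culture at probe 1. Probe 2, at chr4:58697529-58697847, read 16.9, 40.9 and 39.2 in single culture and 60.3, 217 and 239 in mix culture. At both probes replicate 1 was the lowest of its culture, and the cultures did not overlap. The log2 changes were 2.18 (SE 0.59) and 2.22 (SE 0.72), or 4.54-fold and 4.65-fold. Neither probe was called, and both were called with the slide as a block.

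DLA-DMA and DLA-DMB form the DM pair that loads peptide. DLA-DMA, at chr12:2517961-2518020, read 11.5, 13.2 and 15.1 in single culture and 24.1, 29.5 and 26.1 in mix culture, a log2 change of 0.94 (SE 0.26) that was not called. DLA-DMB probe 1 read 2.97, 3.99 and 3.51 in single culture and 7.16, 10.7 and 9.18 in mix culture, and probe 2 read 0.975, 1.41 and 1.87 in single culture and 7.41, 7.02 and 6.69 in mix culture. DLA-DMB probe 1 was at least 2.01-fold higher in mix culture and was not called, while probe 2 rose at least 1.59-fold. Both DLA-DMB probes were above background on every mix culture array and on no single culture array. DLA-DMB probe 2 lost its call without single culture replicate 2, mix culture replicate 2 or mix culture replicate 3. DLA-DOA, the alpha chain of DO, was not higher in mix culture. Probe 1 read 9.27, 8.07 and 5.61 in single culture and 10.4, 4.5 and 6.43 in mix culture, and probe 2 read 8.24, 7.13 and 7.16 in single culture and 9.54, 5.36 and 4.92 in mix culture. These probes gave log2 changes of -0.23 (SE 0.27) and -0.31 (SE 0.18), the cultures overlapped at both, and both were above background on 3 single culture arrays and 2 mix culture arrays.

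CTSS, or cathepsin S, cuts the invariant chain in its last steps. It read 8.93, 6.66 and 8.19 in single culture and 35.3, 51.2 and 22.2 in mix culture. The lowest mix culture array was above the highest single culture array, and CTSS rose by a log2 change of 2.05 (SE 0.29) or 4.16-fold, at chr17:59894206-59894265. It lost its call without any 1 of the single culture arrays or without mix culture replicate 3.

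**Figure D2:**
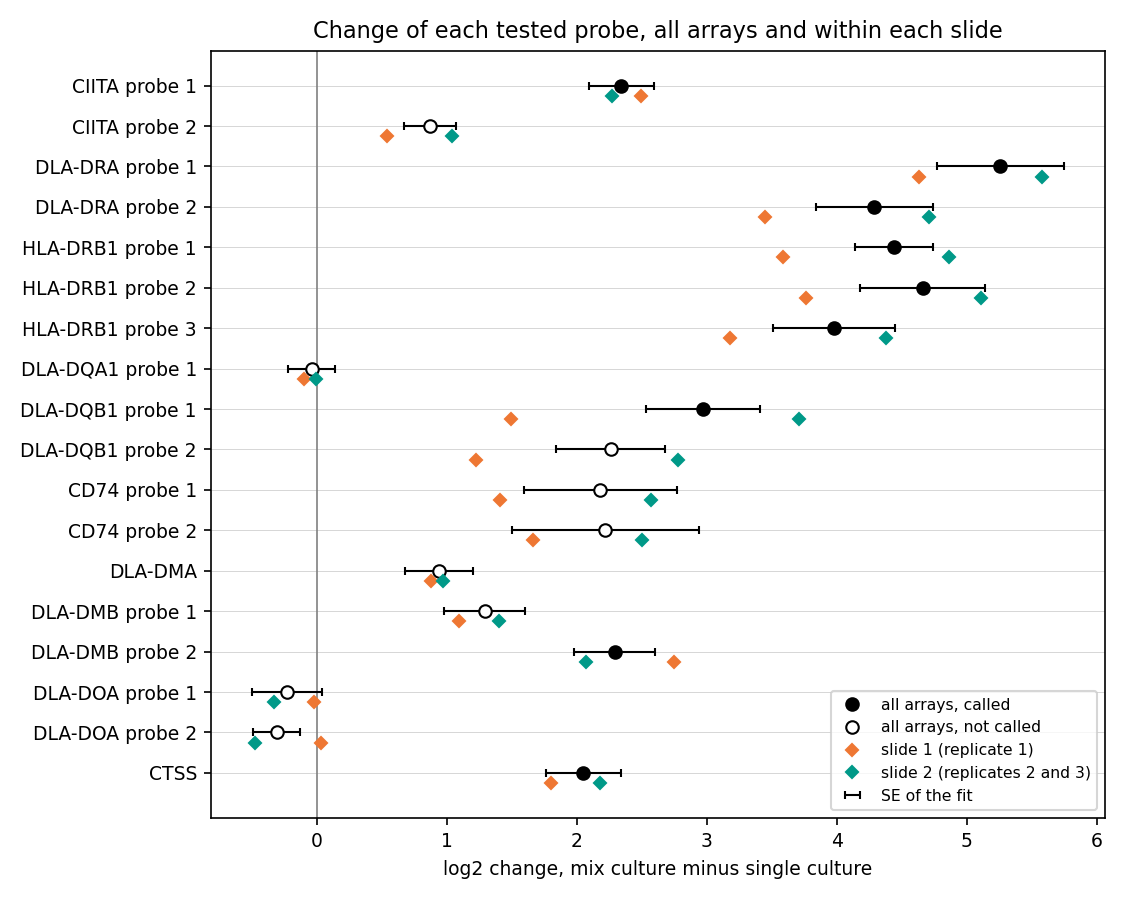
Log2 change of each tested probe (circles, filled where called, with the SE of the fit) and the change within slide 1 and slide 2 (diamonds). For both DLA-DRA probes and all 3 HLA-DRB1 probes the slide 2 change is to the right of the slide 1 change, and for CIITA probe 1 it is to the left.

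The change was not of one size on the 2 slides. It was larger on slide 2 for 14 of the 18 tested probes (77.8%), against 52.4% of all tested probes. The medians of the 18 were 1.58 on slide 1 and 2.38 on slide 2. HLA-DRB1 probe 2 changed by 3.76 on slide 1 and 5.11 on slide 2, DLA-DQB1 probe 1 by 1.49 and 3.71, and CD74 probe 1 by 1.41 and 2.57. CIITA probe 1 differed less, at 2.49 and 2.27. Slide 1 held 1 array of each culture, so this is a description of these arrays.

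The DR, DQ, DM and DO genes lie together on chromosome 12. Between the outermost of their probes, 430.0 kb apart, were 20 other probes, of which 14 were tested and 4 called. A transcript contig described as DR alpha read 9.46, 4.58 and 1.30 in single culture and 115, 142 and 184 in mix culture, with a log2 change of 5.17 (SE 0.65, adjusted p = 0.0163). It was above background on 1 of 3 single culture arrays, so the size of that change rests in part on values below background. A contig described as DM alpha, above background on all 6 arrays, read 6.15, 5.30 and 4.74 in single culture and 8.95, 7.11 and 5.78 in mix culture. Its change of 0.35 (SE 0.15, adjusted p = 0.561) was not called and was smaller than the 0.94 of the DLA-DMA probe. The other 3 called probes were those of PSMB8 and PSMB9, subunits of the immunoproteasome that makes class I peptides. TAP1, a subunit of the class I peptide transporter, had a change of 1.33 (SE 0.38, adjusted p = 0.30), and the 3 BRD2 probes had changes of 0.00 to 0.15. DLA-DOB, the beta chain of DO, was not tested. High and low changes alternated along the interval. Of 5 further probes described as class II, placed elsewhere or given no position, 2 were tested and neither was called. Both were described as class II beta chain variable regions, 1 of them at least 2.03-fold higher in mix culture and the other at a log2 change of -0.23 (SE 0.27).

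**Figure D3:**
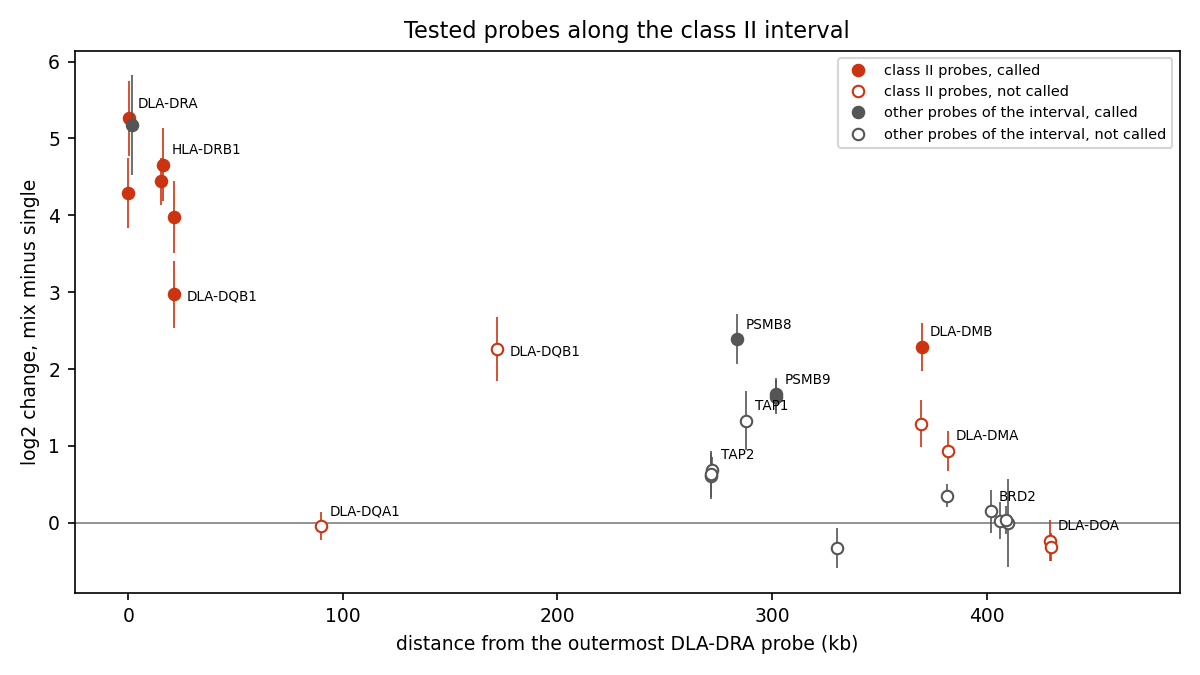
Log2 change with SE of the tested probes against distance in kb from the outermost DLA-DRA probe, class II probes in red, other probes in grey, filled where called. DR probes sit at 3.98 to 5.26, DLA-DQA1 and DLA-DOA near 0, and PSMB8 and PSMB9 between DLA-DQB1 probe 2 and DLA-DMB.

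Genes around the pathway were taken as lists. None of the 7 promoter-bound factors through which CIITA acts was called. Their median log2 change was 0.04, with NFYA at -0.31 (SE 0.25) and RFX5 at 0.27 (SE 0.21). Of the genes on the interferon-gamma route to CIITA, 7 were tested and none was called, with a median of -0.02. USF1 was at 0.46 (SE 0.59) and JAK2 at 0.27 (SE 0.29). IFNG and IRF8 were not tested. None of 7 repressors of CIITA was called (median -0.12), TGFB1 being at -0.65 (SE 0.41) and MYC at -0.43 (SE 0.17). None of 8 endosomal processing genes was called (median 0.06), with CTSE at -0.93 (SE 0.23) and CST6 at -0.41 (SE 0.30), and none of 7 genes of class II turnover and surface partners (median -0.05), with CXCR4 at 0.53 (SE 0.39) and MARCH8 at 0.49 (SE 0.17). With the replicate block TGFB1 (adjusted p = 0.0288) and CTSE (adjusted p = 0.00858) were called lower, and no other gene of these 5 lists was called. With the slide block CD9 was also called lower and USF1 higher. Over all probes limma called 232 without a block, and 2323 had an unadjusted p under 0.05.

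Of 6 tested co-stimulatory and inhibitory ligands, 1 was called: LGALS9, or galectin-9, read 4270.0, 5300.0 and 3970.0 in single culture and 18200.0, 11900.0 and 12700.0 in mix culture. It rose by 1.58 (SE 0.20, adjusted p = 0.018). CD86 was at 0.38 (SE 0.39) and ICAM1 at 0.35 (SE 0.24). Of 14 tested class I genes 2 were called, PSMB8 at 2.39 (SE 0.32, adjusted p = 0.0215) and PSMB9 at 1.67 (SE 0.21, adjusted p = 0.0163). In this list 13 genes had a positive change, with a median of 0.69, and 4 of 14 changed more on slide 2 (28.6%). TAP1 and B2M, the class I light chain, had changes of 1.33 and 0.93 without being called. With the replicate block 10 of the 14 were called, all higher, among them TAP1 (adjusted p = 0.00137), B2M (0.00464), TAPBP (0.00608) and PSMB10 (0.0136). With the slide block 11 were called, all higher. Over all 26621 tested probes 865 were called higher with the replicate block and 1063 with the slide block. Without a block, LGALS9, PSMB8 and PSMB9 each lost the call without single culture replicate 3 (adjusted p = 0.128, 0.131 and 0.117), mix culture replicate 2 (0.074, 0.0645 and 0.0754) or mix culture replicate 3 (0.112, 0.118 and 0.0685), and PSMB8 also without mix culture replicate 1 (0.0575).

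**Figure D4:**
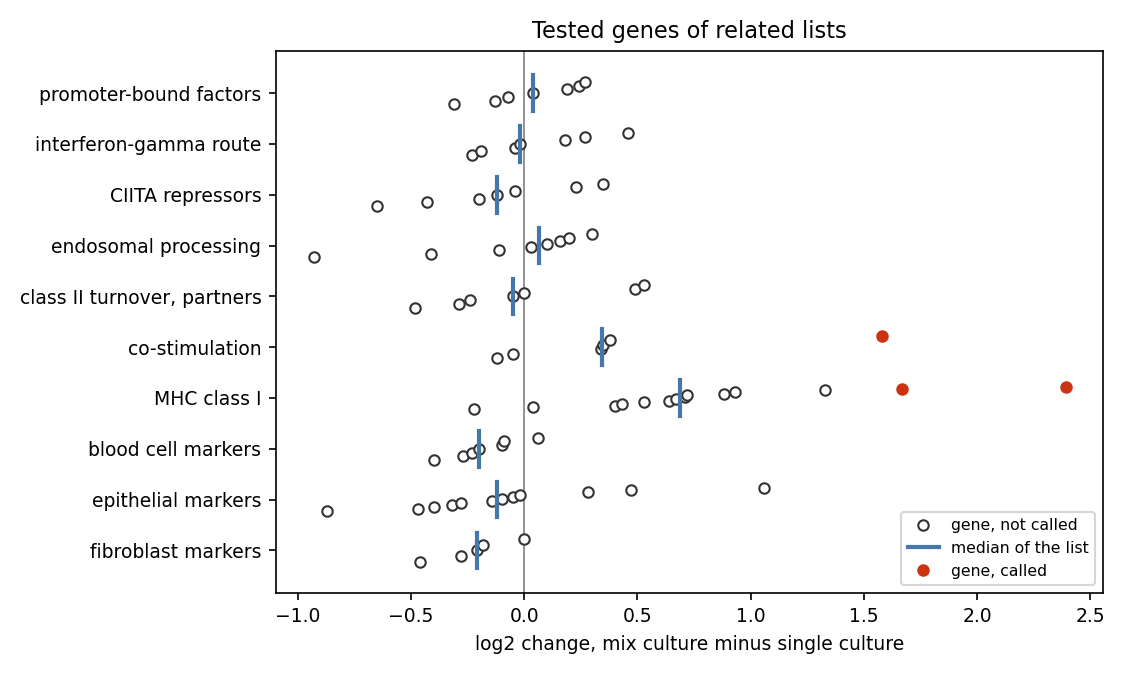
Log2 change of each tested gene (1 probe a gene) by list, filled where called, with a bar at the median of the list. Most lists centre near 0, and the MHC class I list centres at 0.69 with PSMB8 and PSMB9 to its right.

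No tested marker of blood cells was called. Of 18 on the array 7 were tested, and their median log2 change was -0.20. Their summed intensity was 286 to 426 in single culture and 275 to 424 in mix culture. PTPRC, ITGAX, SPI1, MS4A1 and FLT3, which define leukocytes, dendritic cells, myeloid cells, B cells and blood progenitors, were among 10 markers above background on no array. Of 10 fibroblast markers 5 were tested, none was called, and the summed intensity was 260.0 to 533 and 231 to 489.

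The 6-array profile most like that of HLA-DRB1 probe 2, by root mean square distance after centring each of 25611 probes, belonged to HLA-DRB1 probe 1 (0.44). Among genes outside the pathway the nearest were MX2 (0.55), PCK1 (0.77), IFIT1 (0.77), MX1 (0.82) and IFGGB1 (0.84), each above background on all 6 arrays. The other member probes compared were further away, from DLA-DQB1 probe 2 (1.21) to CIITA probe 2 (1.94). The distance depends on the size of the change as well as on its pattern. MX1, MX2 and IFIT1 encode antiviral proteins of the interferon response, and PCK1 a gluconeogenic enzyme.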

How the data were processed

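Gene expression was measured in 3 single culture and 3 mix culture samples. The authors deposited scanner files of processed intensity (Agilent Feature Extraction, per the file headers version 11.5.1.1 on slide 1 and 12.1.1.1 on slide 2) and a log2 value table, which the authors centred within each slide and which served as an alternative. Intensity was scaled to the 75th percentile of each array after log2, flagged outlier spots (5 to 9 an array) were dropped, spots of a probe were averaged, and no spot was saturated. Probes well above background on every array of 1 culture were tested with limma 3.58.1 in R 4.3.3, without a block, calling at an adjusted p under 0.05, after the code had been tested on simulated data. The number of arrays limits the precision. Members and lists were chosen with earlier results of these data known. All 10 members were named, and of each list the called genes and the 2 with the largest change. Same-numbered samples deviated together (correlations 0.801, 0.53 and 0.572 between the cultures), as did samples of different numbers on slide 2 (0.61 and 0.632), and those on different slides opposed each other (-0.666 to -0.707). The replicate block took the numbers as pairs. On slide 2 same-numbered samples were no more alike than differently numbered ones. Pairing by number is therefore an assumption of that block, which these values do not show. Alternatives were a slide or replicate block, slide 2 alone, other filters and normalizations, the methods' t-test, the value table and leaving out each array. The value table was fitted without a block, which takes no account of its centring, so its call counts may be too high. The result of 1 epithelial marker is not reported here.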

Additional observations from a re-analysis of the deposited data

How the results depend on the processing

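The number of called class II, CIITA, CD74 and CTSS probes, 9 of 18, was 15 with the slide as a block, 15 with the replicate block, 15 with that block and mix culture replicates 2 and 3 exchanged (chosen after seeing the data), 16 of 19 on slide 2 alone, 15 with the authors' value table, 4 of 9 among probes above background on all 6 arrays, 2 with normexp background correction and quantile normalization and 0 with the methods' t-test, which called 8 probes of all and gave 2596 an unadjusted p under 0.05. Leaving out 1 array gave 3 to 14. For the related genes outside the members, 3 of 56 were called, and the count was 16 with the slide block, 13 with the replicate block, 11 with the exchanged pairing, 9 on slide 2 alone, 21 with the value table, 1 with normexp, 0 with the methods' t-test and 0 to 3 with 1 array left out. Over all tested probes the calls were 232 without a block, 1923 with the slide block, 1410 with the replicate block, 1459 with the exchanged pairing, 999 of 26807 on slide 2 alone, 4077 with the value table, 142 of 25612 on all 6 arrays and 132 with normexp. No filter and quantile normalization alone left both counts at 9 and 3. Of 166 gene values under alternatives, 157 moved by less than the replicate spread, and 9 moved further. In 3 of the 166 the sign changed, all near 0: DLA-DOA, -0.23, was 0.02 without mix culture replicate 2, and DLA-DQA1, -0.04, was 0.01 when single culture replicate 1 was left out and 0.10 when mix culture replicate 2 was. Normexp, which adds an offset of 50, gave 7 of the 9, such as 0.95 for DLA-DRA and 0.69 for CIITA. The mean over probes gave the others, 1.61 for CIITA and 1.79 for DLA-DMB. Signal near background limits the size of change at DLA-DRA and DLA-DMB, whose probes were above background on no single culture array.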
